A study of Mus musculus with 9 samples.

Results

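B220 is a protein form of CD45, the receptor tyrosine phosphatase encoded by Ptprc, and it has long been used as a surface marker of mouse B cells. The data described here cover Ptprc and 6 genes of the B cell lineage, Cd79a, Cd79b, Ms4a1, Pax5, Ebf1 and Cd22. The 7 genes were given by name, and every probe set that carries their symbol alone was taken, which gave 15 probe sets for 7 of the 18193 genes measured. The cells came from naive BALB/c mice of 6 to 8 weeks and were cell-sorted without culture or treatment. The 6 groups were interferon-producing killer dendritic cells (IKDC), natural killer (NK) cells and conventional dendritic cells (CDC) from spleen, with 2 arrays each, and IKDC, NK cells and CDC from lymph node (LN), with 1 array each. IKDC are known from the literature as CD11c-positive cells that carry both B220 and NK receptors. The sorting gates, the number of mice behind an array and their sex are not given in the sources used here.

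CD45 is carried by all nucleated blood cells, where it removes inhibitory phosphates from Src family kinases and, in lymphocytes, sets the threshold of antigen receptor signalling. B220 is the form in which the alternatively spliced exons near the 5′ end of the Ptprc transcript are kept, and besides B cells it is carried by plasmacytoid dendritic cells and some activated lymphocytes. The B cell programme is set by EBF1 and PAX5, transcription factors that switch on the signalling chains of the B cell receptor (Cd79a and Cd79b) and coreceptors such as CD22, an inhibitory lectin. Ms4a1 encodes CD20, a membrane protein of mature B cells.

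The deposited intensities had been scaled so that the mean between the 2nd and 98th percentiles was 150.001 on each of the 9 arrays, and the array medians lay between 23.4 and 41.3 intensity units. NK genes (7 measured, among them Ncr1) summed to between 12771 and 25959 normalized intensity units on the IKDC and NK arrays, and to between 317 and 624 on the CDC arrays. Conventional DC genes (7 measured) summed to 6401 and 4601 on the spleen IKDC arrays, 4635 and 417 on the spleen NK arrays and 14445 and 18540 on the spleen CDC arrays. On the spleen IKDC arrays most of that signal came from H2-Aa, an MHC class II gene (4359 and 1775 units as deposited), and Itgax, the CD11c gene (2149 and 2094). Flt3 read 66.0 and 36.6 on them and Zbtb46 37.8 and 56.4. The spleen NK arrays disagreed with each other, with H2-Aa at 2051 and 89.3 and Itgax at 2831 and 144. On the LN IKDC array 7 of 8 plasmacytoid DC genes were highest, and the sum of the 8 genes was 12518 units against 789 to 2759 on the other 8 arrays. The spleen arrays with the number 1 differed from all others in the sex-linked genes, with Xist at 6.02 to 6.36 and Eif2s3y at 8.84 to 9.40 on the log2 scale, against Xist at 11.43 to 12.49 on the spleen arrays with the number 2 and on the LN arrays. Each number holds all 3 spleen cell types, so values within a number are given beside the calls below. LN arrays share the Xist level of the second number only, and their comparisons with spleen carry that difference.

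Promoter sequences from RefSeq (GRCm38.p6, 250 bases before to 50 after a transcript start) were found for 5 of the 7 genes. Those of Ptprc, Cd79a and Cd22 are shown because these genes gave the 3 kinds of pattern described below: high signal on every array, low signal on every array, and signal that differed between cell types. Capitals mark letters of 3 motifs searched on both strands: CCCNNGGG, the core of the EBF1 motif, GAGGAA, a PU.1 core, and the octamer ATTTGCAT bound by POU factors.
Ptprc, chr1:138175256-138175555, minus strand: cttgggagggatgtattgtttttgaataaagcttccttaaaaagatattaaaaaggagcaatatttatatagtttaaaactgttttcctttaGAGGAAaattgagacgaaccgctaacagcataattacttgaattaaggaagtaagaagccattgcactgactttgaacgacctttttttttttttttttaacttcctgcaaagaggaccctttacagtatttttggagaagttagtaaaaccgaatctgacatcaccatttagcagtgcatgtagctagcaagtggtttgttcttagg
Cd79a, chr7:24897247-24897546, plus strand: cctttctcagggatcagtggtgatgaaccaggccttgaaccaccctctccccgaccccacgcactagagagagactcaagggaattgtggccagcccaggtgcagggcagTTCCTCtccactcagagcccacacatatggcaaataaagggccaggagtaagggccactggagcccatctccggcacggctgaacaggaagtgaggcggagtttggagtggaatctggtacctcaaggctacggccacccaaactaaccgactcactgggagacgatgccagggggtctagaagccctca
Cd22, chr7:30878979-30879278, minus strand: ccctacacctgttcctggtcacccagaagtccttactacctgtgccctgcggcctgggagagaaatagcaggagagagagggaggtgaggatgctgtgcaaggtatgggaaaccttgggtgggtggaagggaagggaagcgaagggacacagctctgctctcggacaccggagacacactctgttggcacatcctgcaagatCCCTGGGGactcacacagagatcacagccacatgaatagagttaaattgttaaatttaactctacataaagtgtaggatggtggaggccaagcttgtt

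The Ptprc window held GAGGAA at position 93 counted from its 5′ end, and the Cd79a window held it on the reverse strand at position 111. The Cd22 window held CCCNNGGG at position 203. Such matches are common, since 28.3% of 32851 promoters of the same length held GAGGAA, 13.7% held CCCNNGGG and 1.74% held the octamer, and none of the 3 windows printed held the octamer. The Cd79a window lies at the annotated start of its gene (chr7:24897497-24901858), whereas the Ptprc and Cd22 windows lie inside the annotated spans chr1:138062859-138175756 and chr7:30865404-30880342, downstream of the outermost start. A match of letters is a description of the window and was set against no expression value.

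Ptprc gave a high signal on every array, whatever the sorted cell. Its brighter probe set, 1422124_a_at, read 7551 and 4519.6 intensity units in spleen IKDC, 8966 and 11063 in spleen NK cells, and 8469 and 12548 in spleen CDC. On the LN arrays it read 4874 in IKDC, 6015 in NK cells and 5600.5 in CDC. Both spleen IKDC arrays therefore lay below all spleen NK and CDC arrays as deposited, and after quantile normalization most of that gap was gone.

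On the normalized log2 scale Ptprc averaged 12.85 ± 0.0036 in spleen IKDC, 13.05 ± 0.049 in spleen NK cells and 12.99 ± 0.22 in spleen CDC (SD, n = 2 each). Spleen IKDC and spleen CDC differed by -0.14 ± 0.18 (SE; 95% interval -0.58 to 0.29, adjusted p = 0.710), and spleen IKDC and NK cells by -0.21 ± 0.18 (-0.64 to 0.23, adjusted p = 0.878). As deposited, without quantile normalization, these differences were -0.82 (adjusted p = 0.241) and -0.77 (adjusted p = 0.886). In order of level the groups ran spleen NK cells, spleen CDC, spleen IKDC, LN NK cells at 12.73, LN IKDC at 12.72 and LN CDC at 12.18, and no neighbours in that order that were compared passed the test. The largest Ptprc difference among the 9 comparisons was between LN and spleen CDC, at -0.81 ± 0.22, which did not pass (adjusted p = 0.249).

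The second Ptprc probe set, 1440165_at, read 1551 and 417 units in spleen IKDC, 1792 and 619.9 in spleen NK cells, and 1278 and 966 in spleen CDC. It read 1769 in LN IKDC, 1571 in LN NK cells and 1098 in LN CDC. The 2 probe sets disagreed within the spleen NK and CDC groups, where the brighter one was higher on the arrays with the number 2 and the dimmer one was lower there. No source used here says which exons either probe set reads, so the B220 form was not told apart from other CD45 forms.

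**Figure D1:**
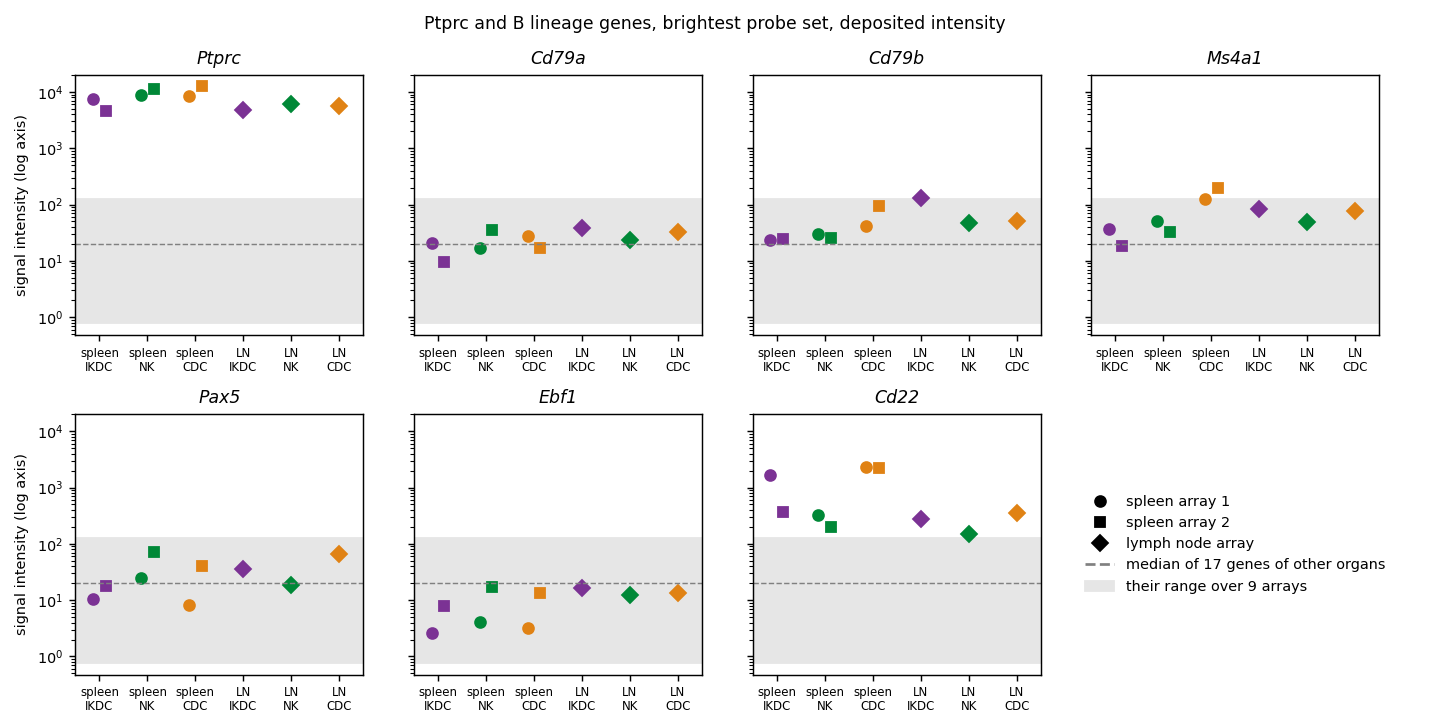
Deposited signal intensity (log axis) of the brightest probe set of Ptprc and the 6 B lineage genes in IKDC, NK cells and CDC from spleen (circle, array 1; square, array 2) and lymph node (diamond); the grey band is the range, 0.775 to 127 units, of 17 genes of other organs over the 9 arrays and the dashed line their median of 19.98. Ptprc lies at 4519.6 units or more on every array, Cd22 above the band on every array, and the other 5 genes mostly inside it.

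Genes that act on or with CD45 did differ between the cell types, although Ptprc itself did not pass a test. Of the 9 CD45 partner, substrate and splicing genes tested, 4 rose and 2 fell in spleen IKDC relative to spleen CDC, and 5 rose and 2 fell in spleen NK cells relative to spleen CDC. Over all 10916 genes tested, 10.3% passed in the IKDC comparison and 13.5% in the NK comparison. The median difference of the 9 genes was 0.89 for IKDC and 1.26 for NK cells, beside 0.04 and 0.06 for all genes. None of the 9 passed between spleen IKDC and spleen NK cells, where 0% of all genes did (0 genes with limma, 598 at an unadjusted p under 0.05).

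Ptprcap encodes the CD45-associated protein, a small transmembrane partner of CD45. It read 1992 and 1988 units in spleen IKDC, 2782 and 2637 in spleen NK cells, and 133 and 186 in spleen CDC, so the CDC arrays did not overlap the others. The difference was 3.63 ± 0.24 log2 units for IKDC (12.4-fold, adjusted p = 0.00129) and 3.93 ± 0.24 for NK cells (adjusted p = 0.00058). In LN it was 4.10 ± 0.34 for IKDC and 4.31 ± 0.34 for NK cells relative to CDC (adjusted p = 0.00949 and 0.00526).

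Fyn, a Src family kinase on which CD45 acts, read 2645 and 2698 units in spleen IKDC and 648 and 708 in spleen CDC, and rose by 2.13 ± 0.24 (adjusted p = 0.00329). Cd2, an adhesion receptor whose signal depends on CD45, was at least 37.4-fold higher in spleen IKDC than in spleen CDC (adjusted p = 0.00129). A fold given as at least a number is measured against 5.31 on the log2 scale, the level that genes had to average to be tested. The mean of the dimmer group lay under that level. Such genes entered the test only through their brighter groups, as Cd2 did through the IKDC and NK arrays. Lgals1, which encodes galectin-1, a lectin that binds CD45 sugars, rose by 2.69 ± 0.41 (adjusted p = 0.00978). All of these averaged higher in spleen NK cells than in spleen IKDC, and none of those differences passed. In the other direction, Cd4, whose kinase partner is a CD45 substrate, was at least 16.5-fold lower in spleen IKDC than in spleen CDC (adjusted p = 0.00276). The LN order was another one, with Cd4 at 608 units in IKDC, 246 in CDC and 61.0 in NK cells (1 array each).

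Hnrnpll encodes the splicing factor that favours skipping of the variable CD45 exons. It read 429 and 332 units in spleen IKDC, 322 and 293 in spleen NK cells, and 775 and 932 in spleen CDC. It fell by 1.19 ± 0.28 log2 units in spleen IKDC relative to spleen CDC (adjusted p = 0.0485), just inside the threshold, and by 1.42 ± 0.28 in spleen NK cells (adjusted p = 0.0210). In LN it read 183 in IKDC, 517 in NK cells and 882 in CDC, and the IKDC and CDC arrays differed by -2.38 ± 0.40 (adjusted p = 0.0310). Spleen IKDC and NK cells did not differ beyond the test in Hnrnpll.

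**Figure D2:**
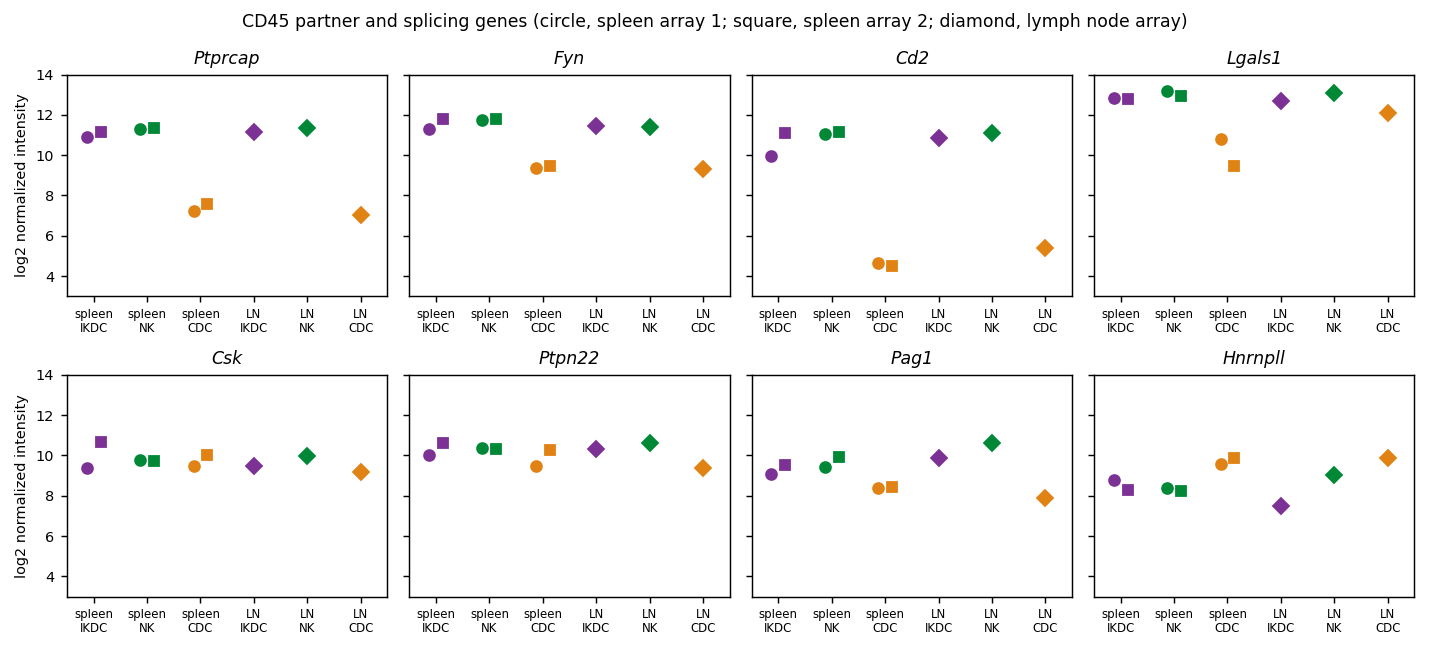
Normalized log2 intensity of 8 CD45 partner, substrate and splicing genes in IKDC, NK cells and CDC from spleen (circle, array 1; square, array 2) and LN (diamond). Ptprcap, Fyn and Cd2 lie higher in every IKDC and NK array than in every CDC array, and Hnrnpll lies lower.

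Cd79a, Pax5 and Ebf1 gave signals so low that none entered a test. Genes had to average at least 5.31 on the log2 scale, the 40th percentile, and these 3 averaged 4.90, 5.07 and 3.96 over the 9 arrays. The files hold no detection calls, so 17 genes known from other organs, such as Pomc, were read as a guide to the signal of unused probe sets. They were chosen after the levels of the 7 genes had been seen, and probe sets differ in how they respond, so the guide gives no order of expression. Those 17 genes lay between 0.775 and 127 intensity units, with a median of 19.98 and a 90th percentile of 52.5. The upper end came from Pomc (43.7 to 127), and no other gene of the 17 went above the 73.3 of Gh.

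Cd79a, the Igα signalling chain of the B cell receptor, read 21.1 and 9.67 units in spleen IKDC, 16.97 and 35.1 in spleen NK cells, and 27.3 and 17.04 in spleen CDC. In LN it read 39.1 in IKDC, 23.5 in NK cells and 33.2 in CDC. All 9 values lie inside the range of the other-organ genes, and the 3 spleen groups overlapped.

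Pax5, the factor that holds B cell identity, has 2 probe sets. The brighter, 1454401_at, read 10.4 and 17.6 units in spleen IKDC, 24.4 and 70.3 in spleen NK cells, and 8.33 and 40.6 in spleen CDC, with 35.3, 18.4 and 66.2 in LN IKDC, NK cells and CDC. The other, 1421765_at, lay between 1.83 and 18.7 on all arrays. The brighter one was higher on the second array in all 3 spleen groups.

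Ebf1, the factor that starts the B cell programme, had 5 probe sets, and none passed 21.0 units on any array. Its brightest, 1439789_at, read 2.60 and 7.86 in spleen IKDC, 4.11 and 17.4 in spleen NK cells, 3.25 and 13.6 in spleen CDC, and 16.6, 12.1 and 13.5 in LN IKDC, NK cells and CDC. Here too the second spleen array was the higher one in each group.

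**Figure D3:**
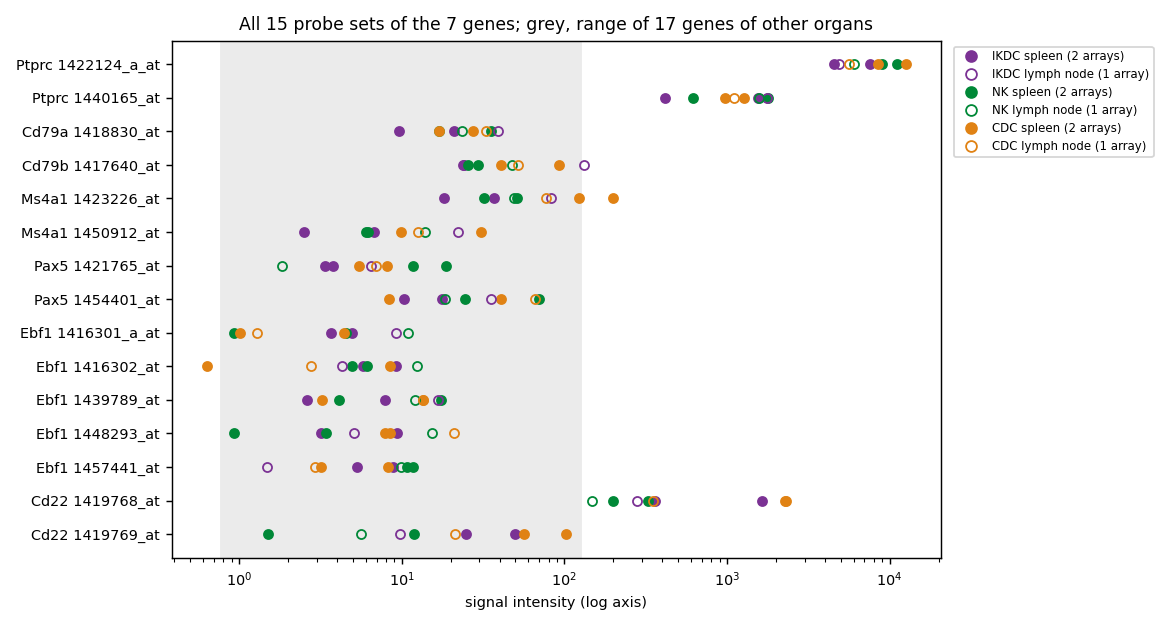
Signal intensity (log axis) of all 15 probe sets of the 7 genes, with 1 point per array: IKDC, NK cells and CDC from spleen (filled, 2 arrays each) and lymph node (open, 1 array each); grey marks 0.775 to 127 units, the range of 17 genes of other organs. Both Ptprc probe sets and the Cd22 probe set 1419768_at lie wholly to the right of the band, and no Pax5 or Ebf1 value lies above its upper end.

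Of the 7 genes, 4 could be tested, Ptprc, Cd79b, Ms4a1 and Cd22. In spleen IKDC relative to spleen CDC 1 of the 4, Ms4a1, fell (5.6% of all genes tested fell in that comparison). In spleen NK cells relative to spleen CDC 2 of the 4, Ms4a1 and Cd22, fell (6.97% of all genes fell). None of the 4 passed in the other 7 comparisons. In these the share of all genes that passed was 0.055% between LN IKDC and LN NK cells, 3.98% between LN IKDC and LN CDC, 6.16% between LN NK cells and LN CDC, 0.0275% between LN and spleen CDC, and 0% in the remaining 3. In particular none passed between spleen IKDC and spleen NK cells, and with 4 genes these counts are only a description.

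Ms4a1, the CD20 gene, was lower in spleen IKDC and spleen NK cells than in spleen CDC. Its brighter probe set, 1423226_at, read 37.0 and 18.3 units in spleen IKDC, 51.0 and 31.97 in spleen NK cells, and 123 and 200 in spleen CDC. The CDC arrays lay above all others, including the LN arrays at 83.2 in IKDC, 49.3 in NK cells and 76.6 in CDC. In sorted bulk samples, fewer cells that express a gene and less RNA per cell cannot be told apart.

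On the log2 scale Ms4a1 averaged 5.22 ± 0.24 in spleen IKDC, 5.61 ± 0.54 in spleen NK cells and 7.40 ± 0.39 in spleen CDC (SD, n = 2 each). Spleen IKDC differed from spleen CDC by -2.18 ± 0.41 (SE; 95% interval -3.16 to -1.20, adjusted p = 0.0204). Since the IKDC mean lay under the filter level, this is given as at least 4.26-fold lower, measured against that level. Spleen NK cells differed from CDC by -1.78 ± 0.41 (3.44-fold, adjusted p = 0.0344), and spleen IKDC from NK cells by -0.40 ± 0.41, which did not pass (adjusted p = 0.891).

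Within the arrays numbered 1 and within those numbered 2, the IKDC and CDC levels of Ms4a1 differed by -1.73 and -2.63, and the NK and CDC levels by -1.13 and -2.44. The call for IKDC was lost with the mean of both probe sets (-1.64, adjusted p = 0.0516), and without spleen CDC array 1 (-2.46, adjusted p = 0.0783), CDC array 2 (-1.90, adjusted p = 0.171) or IKDC array 2 (-2.01, adjusted p = 0.0522). For NK cells it was lost as deposited (adjusted p = 0.0515), without the filter on low values (adjusted p = 0.0636), with the mean of both probe sets (adjusted p = 0.0809) and without any 1 of the 4 spleen NK and CDC arrays (-2.16 to -1.40, adjusted p = 0.0645 to 0.232). In an additive design of cell type and organ neither call passed (-1.42 for IKDC and -1.33 for NK cells, adjusted p = 0.0695 and 0.0737).

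The dimmer Ms4a1 probe set, 1450912_at, read 6.75 and 2.50 units in spleen IKDC, 6.19 and 6.06 in spleen NK cells, and 9.86 and 30.6 in spleen CDC, and gave -1.09 for IKDC relative to CDC (adjusted p = 0.340). In LN, where each group is 1 array and is taken to vary as the spleen groups do, IKDC and CDC differed by 0.10 ± 0.58 (adjusted p = 0.956).

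Cd79b, the Igβ signalling chain of the B cell receptor, followed Ms4a1 in the spleen in direction but not in the test. It read 23.8 and 24.0 units in spleen IKDC, 29.4 and 25.7 in spleen NK cells, and 40.8 and 92.9 in spleen CDC. Spleen IKDC and CDC differed by -1.04 ± 0.44 log2 units (adjusted p = 0.224), spleen NK cells and CDC by -0.99 ± 0.44 (adjusted p = 0.224), and spleen IKDC and NK cells by -0.05 ± 0.44 (adjusted p = 0.990). The spleen CDC arrays did not overlap the IKDC and NK arrays, yet differed from each other more than the IKDC arrays did.

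In LN the order for Cd79b was another one. LN IKDC gave 133 units, LN NK cells 47.9 and LN CDC 51.5, so that LN IKDC was the highest of the 9 arrays. LN IKDC differed from LN NK cells by 1.27 ± 0.63 (95% interval -0.25 to 2.78, adjusted p = 1), from LN CDC by 1.39 ± 0.63 (-0.13 to 2.90, adjusted p = 0.329) and from spleen IKDC by 1.89 ± 0.54 (0.58 to 3.20, adjusted p = 0.473). For Cd79b the IKDC minus CDC difference was 1.39 in LN and -1.04 in spleen, and the LN minus spleen value of that difference was 2.43 ± 0.77 (adjusted p = 0.720). For Ms4a1 it was 0.10 in LN and -2.18 in spleen, and the LN minus spleen value was 2.28 ± 0.70 (adjusted p = 0.685). No gene passed that interaction test with limma, and 615 had an unadjusted p under 0.05.

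Summed over Cd79a, Cd79b, Ms4a1, Pax5 and Ebf1, the normalized signal was 91.2 and 114 units on the spleen IKDC arrays, 144 and 179 on the spleen NK arrays and 220 and 358 on the spleen CDC arrays. It was 266 on the LN IKDC array, 148 on the LN NK array and 201 on the LN CDC array. The spleen IKDC arrays thus had the lowest sums of the 9. Most of the values lie in the range of the other-organ genes, so the sum is no count of B cells. That range owes its upper end to Pomc. Ms4a1 on the spleen CDC, LN IKDC and LN CDC arrays lay above all the others, which reached 73.3 at most. So did Cd79b on spleen CDC array 2 and on the LN IKDC array.

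Cd22 was the B lineage gene with a high signal, and within each organ it was highest in CDC. Its brighter probe set, 1419768_at, read 1641 and 363 units in spleen IKDC, 326 and 198 in spleen NK cells, and 2314 and 2262 in spleen CDC. The LN arrays read 279 in IKDC, 149 in NK cells and 349 in CDC. The spleen CDC arrays agreed closely, whereas the spleen IKDC arrays lay 2.23 log2 units apart, with the first near the CDC arrays and the second near the NK arrays.

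Spleen NK cells differed from spleen CDC in Cd22 by -3.03 ± 0.69 log2 units (8.05 ± 0.51 in NK cells and 11.08 ± 0.08 in CDC, SD, n = 2 each), which is 8.17-fold lower (adjusted p = 0.0344). Within the arrays numbered 1 and 2 the NK difference was -2.61 and -3.45. The call was lost without the filter on low values (adjusted p = 0.0541) and when any 1 of the 4 spleen NK and CDC arrays was left out, where the difference lay between -3.39 and -2.67 and the adjusted p between 0.105 and 0.200.

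Spleen IKDC averaged 9.53 ± 1.58 for Cd22 and differed from CDC by -1.55 ± 0.69 (adjusted p = 0.245) and from NK cells by 1.48 ± 0.69 (adjusted p = 0.857). Within the numbers the IKDC and CDC difference was -0.38 and -2.73, and without spleen IKDC array 1 it was -2.67. That fit leaves 1 spleen IKDC array and drops the gap between the 2 from the spread, so only the difference is given. The size of the difference thus depends on the first spleen IKDC array. The conventional DC genes summed to 6401 on the first spleen IKDC array and 4601 on the other. Of these H2-Aa (4359 and 1775 units) and Flt3 (66.0 and 36.6) were higher on the first array as deposited. Itgax (2149 and 2094) and Xcr1 (12.8 and 12.4) were close on the 2 arrays. Zbtb46 (37.8 and 56.4), Cd86 (69.3 and 90.3) and Ciita (23.4 and 39.0) were lower on the first array. The sum of 6 macrophage genes was lower there too (1794.5 and 5870.1). Mki67, a proliferation gene, read 11.91 and 9.06 on the log2 scale. It was also higher on the first array in spleen NK cells (11.06 and 8.71) and in spleen CDC (10.97 and 9.35). Their part in the Cd22 values was not tested.

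The dimmer Cd22 probe set, 1419769_at, ran the same way between cell types, with 50.04 and 24.8 units in spleen IKDC, 1.51 and 11.9 in spleen NK cells, and 56.9 and 102 in spleen CDC. Between organs, Cd22 differed by -2.53 ± 0.85 in LN relative to spleen CDC, -1.39 ± 0.85 in IKDC and -0.84 ± 0.85 in NK cells, and none of these passed (adjusted p = 0.307, 0.828 and 0.965).

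**Figure D4:**
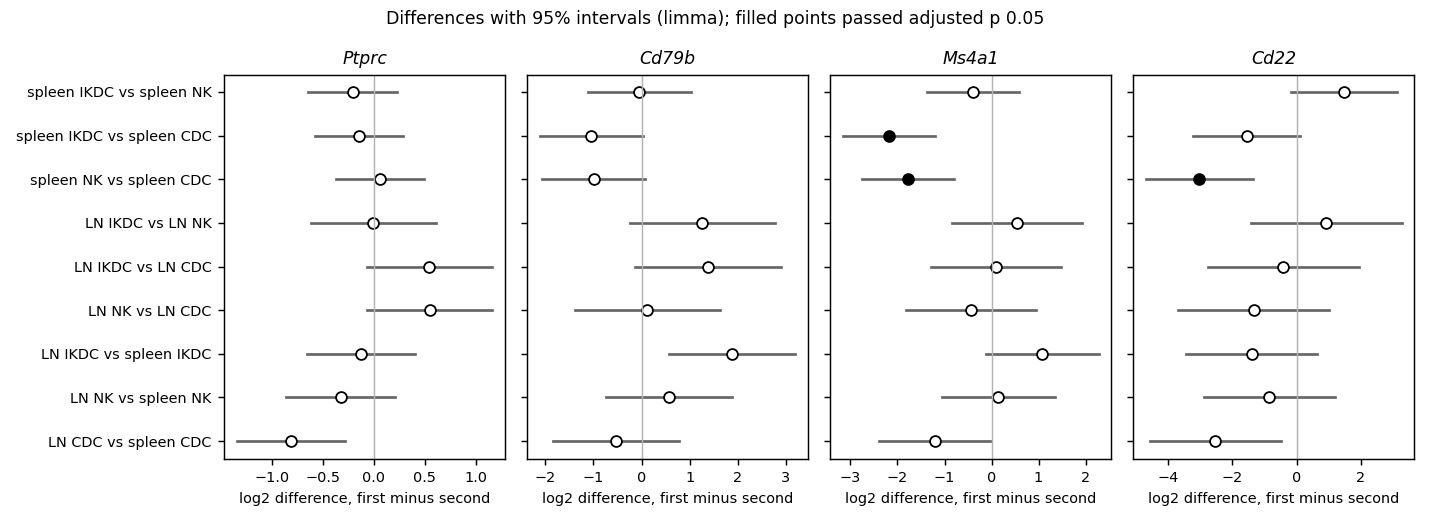
Log2 differences with 95% intervals (limma) of the 4 genes that could be tested, for 9 comparisons, first group minus second; each panel has its own axis range, and filled points passed an adjusted p of 0.05. The 3 filled points are Ms4a1 in spleen IKDC (-2.18) and spleen NK cells (-1.78) and Cd22 in spleen NK cells (-3.03), each relative to spleen CDC.

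Other genes on the list of B cell receptor and coreceptor genes were lower in IKDC and NK cells than in CDC wherever they passed. Of 6 receptor and coreceptor genes tested, 2 fell and 0 rose in spleen IKDC relative to spleen CDC, and 3 fell and 0 rose in spleen NK cells, with medians of -0.59 and -0.61. Over all genes tested 5.6% fell in the IKDC comparison and 6.97% in the NK comparison, with medians of 0.04 and 0.06. Cd24a, which encodes the heat-stable antigen, read 266 and 104 units in spleen IKDC, 105 and 220 in spleen NK cells, and 4332 and 3439 in spleen CDC, and fell by 4.29 ± 0.49 log2 units in spleen IKDC (adjusted p = 0.00357). Cd40, a costimulatory receptor of B cells and dendritic cells, fell by 3.59 ± 0.47 (adjusted p = 0.00559). Both genes are also known to be expressed by dendritic cells. Other genes of the list ran the other way without passing. Cd37 read 633 and 1072 units in spleen IKDC, 1068 and 983 in spleen NK cells, and 320 and 489 in spleen CDC. Cd72 read 584 and 1067 in spleen IKDC and 488 and 538 in spleen CDC. Fcgr2b read 755 and 1166 in spleen NK cells and 347 and 572 in spleen CDC.

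Ighm, the constant region of the IgM heavy chain, read 961 and 988 units in spleen IKDC, 1002 and 716 in spleen NK cells, and 1728 and 1744 in spleen CDC. It fell by 1.02 ± 0.24 log2 units in spleen NK cells relative to spleen CDC (adjusted p = 0.0371), while the IKDC difference of -0.81 ± 0.24 did not pass (adjusted p = 0.0899). LN IKDC had the highest Ighm value at 2031, against 1096 in LN NK cells and 1488 in LN CDC. Its probe set belongs to a gene family whose members may share signal, so the source of it is uncertain. Cr2, the complement receptor of mature B cells, read 12.3 and 8.90 in spleen IKDC, 7.99 and 17.7 in spleen NK cells, and 63.2 and 133 in spleen CDC, and was not tested.

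Among 11 signalling genes tested, 4 fell and 0 rose in spleen IKDC relative to spleen CDC, and 4 fell and 0 rose in spleen NK cells, with medians of -0.75 and -0.41, beside 5.6% and 6.97% of all genes that fell and medians of 0.04 and 0.06. Blk, a Src family kinase of B cells, read 40.2 and 15.04 units in spleen IKDC, 29.2 and 37.0 in spleen NK cells, and 241 and 259 in spleen CDC, and was at least 6.57-fold lower in spleen IKDC than in spleen CDC (adjusted p = 0.00485). Bank1, a B cell scaffold protein, fell by 2.49 ± 0.28 (adjusted p = 0.00329), Btk, the kinase downstream of the receptor, by 2.91 ± 0.57 (adjusted p = 0.0251), and Cd81, a tetraspanin, by 2.43 ± 0.43 (adjusted p = 0.0173). In LN, with 1 array per group, Cd81 was lower in IKDC than in CDC by 3.32 ± 0.61. The median of the 11 genes there was 0.43, beside 0.06 for all genes, so the list as a whole did not run as in spleen.

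Transcription factors that B cells share with other lineages moved in both directions. Of 10 tested, 3 rose and 3 fell in spleen IKDC relative to spleen CDC, and 2 rose and 4 fell in spleen NK cells. The medians were 0.14 and 0.29, and over all genes 10.3% and 13.5% passed in either direction, with medians of 0.04 and 0.06. Spi1, which encodes PU.1, read 61.2 and 37.5 units in spleen IKDC, 52.4 and 83.1 in spleen NK cells, and 1290 and 1209 in spleen CDC, and fell by 4.37 ± 0.29 log2 units in spleen IKDC (adjusted p = 0.00129). Bcl11a and Spib, factors of B cells and plasmacytoid DC, fell by 2.97 ± 0.49 and 2.16 ± 0.52 (adjusted p = 0.0132 and 0.0484).

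Bach2, a repressor that holds lymphocytes in an undifferentiated state, rose by 2.49 ± 0.31 in spleen IKDC relative to spleen CDC (adjusted p = 0.00478). Ikzf3, the Aiolos factor of lymphocytes, rose by 2.64 ± 0.41 (adjusted p = 0.0104), and Foxo1, a factor of lymphocyte development and homing, rose by 1.39 ± 0.32 (adjusted p = 0.0421). Bach2 and Ikzf3 rose in NK cells as well, by 2.56 ± 0.31 and 2.80 ± 0.41 (adjusted p = 0.00331 and 0.00659). Irf4, a factor of plasma cells and dendritic cells, was at least 14.6-fold lower in spleen NK cells than in spleen CDC (adjusted p = 0.00497).

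Of 8 homing and survival genes tested, 1 rose and 2 fell in spleen IKDC relative to spleen CDC, and 1 rose and 3 fell in spleen NK cells. The medians were -0.63 and -1.02, beside 0.04 and 0.06 over all genes, of which 10.3% and 13.5% passed in either direction. Ccr6, a chemokine receptor, fell by 4.01 ± 0.37 in spleen IKDC (adjusted p = 0.00197), Fcrl1, an Fc receptor-like protein, was at least 8.55-fold lower (adjusted p = 0.00383), and Cd55, a complement regulator, was at least 3.97-fold higher (adjusted p = 0.0334). Fcrl1 reached the level needed for a test through the CDC arrays alone, and Cd55 through the IKDC and NK arrays alone. Tnfrsf13b, which encodes the survival receptor TACI, fell by 3.23 ± 0.58 in spleen NK cells (adjusted p = 0.0144). None of the 5 early B cell genes (Vpreb1, Igll1, Rag1, Rag2 and Dntt) reached the filter level. Between spleen IKDC and spleen NK cells no gene of any of these lists passed. For LN IKDC relative to LN CDC (1 array each) the medians were -0.37 for receptor and coreceptor genes and 0.43 for signalling genes. They were 0.58 for transcription factors and 0.99 for homing and survival genes, beside 0.06 for all genes.

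**Figure D5:**
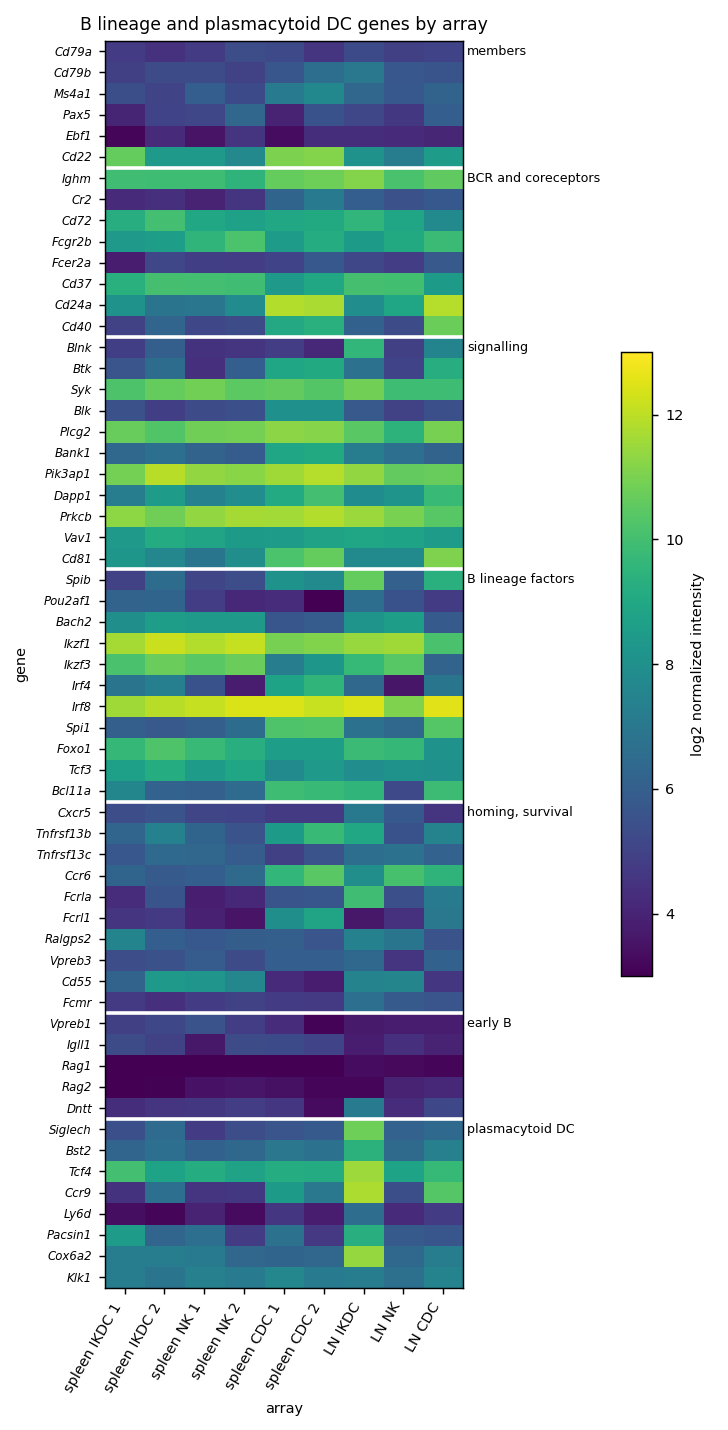
Normalized log2 intensity (colour) of the B lineage genes and of 8 plasmacytoid DC genes on the 9 arrays, from spleen IKDC at the left to LN CDC at the right, grouped by list. Cd22, Cd24a, Cd40, Btk, Spi1 and Fcrl1 are brightest in at least 1 CDC column, and the LN IKDC column is bright for Blnk, Spib, Fcrla and most plasmacytoid DC genes.

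The LN IKDC array held several B lineage genes high along with Cd79b, and these are named after their values were seen. Blnk, the adaptor of the B cell receptor, read 752 units there against 11.7 to 179 on the other arrays. Fcrla, an Fc receptor-like protein of B cells, read 925 against 6.34 to 136, and Spib read 1452 against 24.1 to 614. Dntt, the terminal transferase of lymphoid progenitors, read 149 against 3.19 to 37.4. Cxcr5 read 137 against 17.6 to 48.7, and Fcmr read 105 against 9.23 to 53.2, and neither was tested. Most genes of these lists were not highest there. The share that was lay above the 7.46% of all genes tested in each list, though with few genes these counts are only a description. The array held the highest value for 1 of 8 receptor and coreceptor genes, 1 of 11 signalling genes and 2 of 11 transcription factor genes. It also held it for 4 of 10 homing and survival genes and 2 of 5 early B cell genes, of which Rag1 read 4.72 units. Fcrl1 read 8.14 units on it, against 128 to 454 on the 3 CDC arrays. Cd24a read 241, against 4541 in LN CDC. Blk read 57.7, above LN CDC (45.8) and LN NK cells (24.8) and below spleen CDC (241 and 259).

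Plasmacytoid DC genes were high on the same array. Siglech, a lectin of plasmacytoid DC, read 1606 units in LN IKDC, 67.4 in LN NK cells and 89.9 in LN CDC, and rose by 4.34 ± 0.63 log2 units in LN IKDC relative to LN CDC (adjusted p = 0.0229). Bst2, which encodes tetherin, rose by 2.07 ± 0.41 (adjusted p = 0.0497) and Cox6a2 by 4.20 ± 0.48 (adjusted p = 0.0160), so 3 of 7 plasmacytoid DC genes tested passed, beside 3.98% of all genes. Relative to LN NK cells, Cox6a2 passed (5.05 ± 0.48, adjusted p = 0.0490), beside 0.055% of all genes, which is 6 genes. None of the 6 passed as deposited, without the filter, without the trend or without any 1 of the 4 spleen NK and CDC arrays. By comparison 7.46% of all genes tested were highest on the LN IKDC array. Cd79a, Pax5 and Ebf1 read 39.1, 35.3 and 16.6 units on it. The part of these genes in the Cd79b and Ms4a1 values of the LN IKDC array was not tested.

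For each of the 7 genes the 3 tested genes with the nearest pattern were found, as the smallest root mean square distance between log2 levels centred on their own mean over the 9 arrays. Ptprc lay nearest to Kpna1 (0.0775), BC031181 (0.0807) and Cytip (0.100). Cd79b lay nearest to Tgfbr1 (0.271), Ighm (0.312) and Ctso (0.336), and Ms4a1 to Fam91a1 (0.301), 6330407A03Rik (0.308) and Paxbp1 (0.317). Cd22 had no near neighbour on this measure, since the first, Ctnnd2, lay at 0.549, followed by Espl1 (0.657) and Rad54l (0.676).

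The small distance of Ptprc goes with its narrow range of 0.97 log2 units over the arrays, against 2.11 for Cd79b, 2.63 for Ms4a1 and 3.93 for Cd22. For the genes below the filter level the neighbours were Apoa2, H2ac19 and Gm17508 for Cd79a (0.153 to 0.161), 5430405H02Rik, 6330509M05Rik and Adm for Pax5 (0.347 to 0.396), and C87436, Ptp4a2 and Tax1bp1 for Ebf1 (0.185 to 0.195). These distances share the arrays and their differences between the numbers 1 and 2, and are given as a description.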

How the data were processed

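Total RNA of the sorted cells (6 µg, TRIzol and RNeasy) was turned into biotinylated cRNA for Affymetrix arrays, per the labels' protocols. The values deposited by the authors are signal intensity on a linear scale, scaled per array to a common trimmed mean, and no source used here names the signal software. Of 45101 probe sets in all, 64 are controls, and 34945 carry 1 gene symbol in the platform annotation, 932 several and 9160 none.

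An offset of 6.49 units (the 20th percentile) was added, and the values were log2-transformed and quantile normalized. The brightest single-symbol probe set stood for each gene. Genes averaging at least 5.31 (the 40th percentile) were tested: 10916 of 18193. limma 3.58.1 in R 4.3.3 (lmFit, eBayes with trend) fitted 6 groups with 3 residual degrees of freedom, and p-values were adjusted by the Benjamini-Hochberg method over all genes tested, with a threshold of 0.05. The LN groups, of 1 array each, borrow the spread of the spleen groups. Nothing states that arrays of a group came from separate mice, so the p-values measure the spread between these arrays, which may be technical. The number of arrays limits the precision.

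The 7 genes and all companion lists were chosen with earlier results of these data known. Named genes were the 7 members, up to 4 called genes with the largest difference per list and comparison, Ighm and Cr2, leading markers of other cell types, and the 3 nearest patterns. The script was tested on simulated data. Settings varied were quantile normalization, the offset, the filter, the probe set rule, the trend, the replicate block, an additive design and each spleen array left out. Figures were drawn with matplotlib 3.10.9.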

Additional observations from a re-analysis of the deposited data

How the results depend on the processing

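With 2 arrays per spleen group and 1 per LN group, many small and moderate differences may not pass. On simulated data, the splenic IKDC to CDC test recovered 0% of 2-fold, 32% of 4-fold and 77.5% of 8-fold changes. Far fewer genes were changed in the simulation than the 10.3% that passed in the data, which makes the adjusted p stricter. The recovered shares are therefore no measure of the power in the data, where Hnrnpll and Foxo1 passed below 4-fold. The differences of Cd79b (-1.04) and Cd22 (-1.55) that did not pass between spleen IKDC and CDC are still no sign of equal levels. A low signal limits Cd79a, Pax5 and Ebf1, whose values are not tested. No Ptprc or Cd79b difference passed the threshold under any setting that was run. The spleen arrays share the numbers 1 and 2 across cell types. Deviations from the group means correlated between same-numbered arrays (r = 0.412 for CDC and NK cells, 0.529 for CDC and IKDC, 0.485 for NK cells and IKDC), but no label ties a number to a shared sort. With the replicate block, 1904 genes passed between spleen IKDC and CDC (1129 without it) and 2304 between spleen NK cells and CDC (1475 without it), and the adjusted p of Ms4a1 was 0.0118 and 0.0216.

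The additive design of cell type plus organ gave 1897 and 2404 genes in the same order, and 0 and 1 of the 4 tested members. The mean of all probe sets gave 0 and 1 members, the values as deposited 1 member in the NK comparison, and no filter 0. Leaving out 1 spleen array gave 360 to 1399 genes and 0 to 2 members for IKDC relative to CDC, with the lowest gene count without CDC array 2, and 515 to 1916 genes and 0 to 2 members for NK cells.

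In LN, IKDC and NK cells gave 6 genes, against 0 as deposited, without the filter or without the trend, 18 with an offset of 32 and 0 to 33 with 1 spleen array left out. IKDC relative to CDC gave 434, against 260 without the filter and 123 to 732 with 1 array left out, and NK cells relative to CDC gave 672, against 328 to 1078. Between organs, IKDC gave 0, against 46 with an offset of 32, 18 with the mean of probe sets and 0 to 12 with 1 array left out. NK cells gave 0, against 1 with the offset of 32 and 1 without the filter. CDC gave 3, against 1 with the offset of 32, 8 with the mean of probe sets, 0 without the filter or the trend and 0 to 19 with 1 array left out. The cause of these moves was not tested.

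Some member differences changed sign, none of which passed. For Ptprc, spleen IKDC relative to CDC was 0.087 in the additive design and -0.30 to 0.015 with 1 array left out, and NK cells relative to CDC was -0.050 as deposited, -0.016 with the mean of probe sets, -0.10 with 1440165_at and -0.093 to 0.22 with 1 array left out. In LN, Ptprc in IKDC relative to NK cells was 0.12 with the mean and 0.24 with 1440165_at, and in IKDC relative to CDC it was -0.20 as deposited. Between organs, Ptprc was 0.62 and 1.35 in IKDC and 0.19 and 0.70 in NK cells with the mean and with 1440165_at, and 0.082 in CDC with 1440165_at. Cd79b in spleen IKDC relative to NK cells was 0.39 in the additive design and -0.27 to 0.17 with 1 array left out, and in LN NK cells relative to CDC it was -0.093 as deposited. Ms4a1 in LN NK cells relative to CDC was 0.34 with 1450912_at, and between organs in NK cells it was -0.23 to 0.53 with 1 array left out.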

Other observations

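Prdm1, the factor of plasma cells and of effector lymphocytes, read 114 and 567 units in spleen IKDC, 277 and 968 in spleen NK cells, and 27.3 and 36.0 in spleen CDC, and was at least 13.4-fold higher in spleen NK cells than in spleen CDC (adjusted p = 0.0271, measured against the filter level). It was the 1 of 4 plasma cell genes tested that passed in that comparison, where 13.5% of all genes did. Of the 5 plasma cell genes measured, Xbp1 (2748 units), Jchain (139) and Sdc1 (108) were highest on the LN IKDC array. Tnfrsf17, which encodes BCMA, did not go above 9.18 units on any array.

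Of 6 T cell genes tested, 2 were higher and 2 lower in spleen IKDC than in spleen CDC, where 10.3% of all genes passed. Cd3d, a chain of the T cell receptor complex, read 181 and 190 units in spleen IKDC, 136 and 92.2 in spleen NK cells, and 3.03 and 4.32 in spleen CDC, with 269 in LN IKDC, 453 in LN NK cells and 7.93 in LN CDC. Cd3e read 289 on the LN NK array, against 9.77 to 51.2 on the other arrays. Cd4 read 11.4 to 19.1 on the spleen IKDC and NK arrays, and 608 on the LN IKDC array. Ccr6, listed among the B cell homing genes, was high on the LN NK array at 1061 units, beside 245 in LN IKDC and 677 in LN CDC.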
